A study of Prunus persica with 2 samples.

Results

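The predicted miRNAs described here are 51 peach fruit hairpins for which reads of both arms were listed, the 5p arm that lies before the loop and the 3p arm that lies after it. They were chosen by name from the deposited list of miRNAs. A predicted locus (m and a number) was taken when it had a 5p row and a 3p row, which 54 of the 275 predicted loci had, and 6 loci with very high counts (m0187, m0100, m0189, m0269, m0169 and m0260) were left out, of which 3 had both arms. Since the presence of reads on both arms chose the hairpins, the counts are given as a description with no test. Each arm was found 1 time in the hairpin sequence of its locus in 51 of 51 hairpins, with the 5p arm first.

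The small RNA reads came from 1 library (TBD-623) and the degradome reads from 1 library (Sample_txyD) of fruit of the yellow-fleshed peach (Prunus persica) cultivar Troubador, sampled 35, 55 and 75 days and again 90 and 105 days after full bloom. RNA of these stages was mixed before sequencing, so each value stands for fruit development as a whole and no difference has a replicate check. The sample titles do not name the assay. The TBD-623 title is the prefix of the predicted names, and the degradome list belongs to the other sample. The 51 hairpins had 9372 of the 2308209 listed small RNA reads, or 0.406%, and 17.6% of the 53349 reads of predicted arms. Intervals are exact and at the 95% level (Clopper-Pearson for a share, Poisson for a count), and they cover counting error only, because amplified reads are not independent molecules.

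In plants, Dicer-like 1 cuts a short duplex out of a folded precursor. The strand that is loaded into an Argonaute protein guides the cleavage of matching transcripts, and the opposite strand, miRNA*, is mostly degraded, so the arms of a hairpin usually differ in reads. A duplex released by a Dicer enzyme typically carries a short overhang at each 3' end. Reads of the opposite arm at the matching position are a common criterion for calling a new plant miRNA.

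The following sequences carry the comparisons of this section, written 5' to 3' with the seed (bases 2 to 8) in capitals and with T for U as in the deposited list. Of the first 4 hairpins shown, m0059 and m0230 had the most uneven arms and m0254 and m0231 the most even ones among those with at least 20 reads.
m0059-3p: tGAAGGAAgagatagaagcgc
m0059-5p: gCTTCTATctcttcctttagc
m0230-3p: tCACCGGAattgtcaaaatga
m0230-5p: aTTTTGACaattccggtgacg
m0254-3p: aGTCATGAtctcttggactac
m0254-5p: gGTCCAAGagatcgggactgt
m0231-3p: tTGAGCCGcgccaatatcact
m0231-5p: cGATGTTGgtgaggttcaatc

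The next sequences show identical 5p arms that were listed with different 3p arms.
m0023-5p, m0131-5p and m0132-5p: cAGCCAAGgatgacttgccgg
m0023-3p: gGCAAGTTgtccatggctac
m0131-3p and m0132-3p: gGCAAGTTgtctttggctaca
m0036-5p, m0171-5p and m0241-5p: gGATTGTTtagtgtgcggatt
m0036-3p: tACGCATGctaaacaatccgg
m0171-3p and m0241-3p: tCCGCATGctaaacaatccgg

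The last set holds the further arms that had a degradome pair with a p-value of the authors under 0.05.
m0026-3p: tTGCCTATtcctcccatgccaa
m0128-3p: cGAACTTAttgcaactagctt
m0129-5p and m0183-5p: tAGCCAAGgatgacttgcct
m0148-5p and m0149-5p: gAGCCAAGgatgaattgccgg
m0184-3p: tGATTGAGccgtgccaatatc
m0268-3p: cCTCCCATgccacgcatttcta

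Of these hairpins, 4 are shown whole, with both arms in capitals, because they span the range from the most uneven to the most even duplex and because m0131 and m0231 hold arms with pairs on NF-YA and GRAS transcripts. Their places on the scaffolds are those of the study's hairpin table, for which the sources used here name no genome release. The hairpin of m0059 lies on the minus strand of scaffold 1 at 41019402 to 41019528, that of m0131 on the plus strand of scaffold 4 at 16648995 to 16649094, that of m0231 on the plus strand of scaffold 7 at 21451270 to 21451396 and that of m0254 on the plus strand of scaffold 8 at 10548110 to 10548181. No gene annotation of these places was used here.
m0059: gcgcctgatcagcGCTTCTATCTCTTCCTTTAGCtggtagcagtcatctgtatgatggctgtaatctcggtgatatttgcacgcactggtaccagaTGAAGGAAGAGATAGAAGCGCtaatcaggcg
m0131: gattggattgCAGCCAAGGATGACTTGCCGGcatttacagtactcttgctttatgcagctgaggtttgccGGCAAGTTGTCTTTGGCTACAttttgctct
m0231: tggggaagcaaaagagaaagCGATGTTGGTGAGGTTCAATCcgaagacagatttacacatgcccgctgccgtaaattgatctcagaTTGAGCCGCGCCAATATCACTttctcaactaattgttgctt
m0254: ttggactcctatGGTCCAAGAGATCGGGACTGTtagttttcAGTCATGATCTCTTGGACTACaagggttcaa

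Both arms dominated about equally often. The 5p arm had more reads in 28 hairpins (54.9%, 95% interval 40.3 to 68.9%) and the 3p arm in 23, and no hairpin had equal counts. The interval of the 5p share left out 50% in 44 hairpins, above it in 24 and below it in 20. The more-read arms held 8645 of the 9372 reads, or 92.2%, while the 5p arms as a class held 46.7%. The more-read arm of a hairpin had a median of 78 reads (6 to 710), and the less-read arm a median of 4 reads (1 to 154). Across the 44 distinct duplexes, the counts of the more-read and less-read arms hardly ranked together (Spearman's rho 0.10, all points from the same library).

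**Figure D1:**
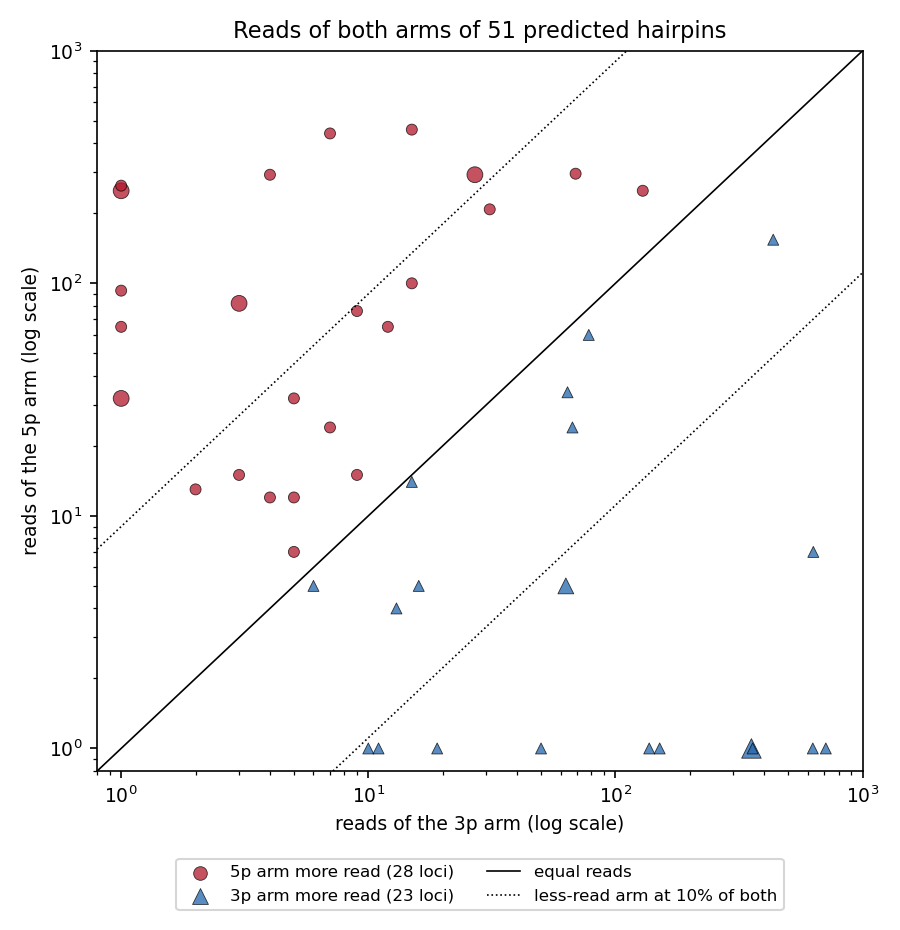
Reads of the 5p arm against reads of the 3p arm for each of the 51 hairpins, both on log axes, with larger symbols where several hairpins have the same pair of counts. The 28 hairpins with more 5p reads lie above the solid line and the 23 with more 3p reads below it, and those beyond the dotted lines have under 10% of their reads on the less-read arm.

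The imbalance between the arms covered a wide range. The less-read arm held a median of 8.33% of the reads of its hairpin, with quartiles of 1.22% and 23.1%, and the median was 3.53% among the 42 hairpins with at least 20 reads. In 29 hairpins (56.9%, 42.2 to 70.7%) it held under 10%, in 11 under 1% and in 7 over 30%. The ratio of the more-read to the less-read arm ran from 1.07 to 710 with a median of 11. Where the 5p arm was the more-read arm the median share of the less-read arm was 9.51%, and where the 3p arm was more read it was 7.35%.

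The most uneven hairpins were m0059, m0230, the m0117 and m0004 groups and m0112, each with 1 read on the less-read arm. m0059 had 710 reads on its 3p arm and 1 on its 5p arm, so the 5p arm held 0.141% (0.00356 to 0.781%). m0230 had 629 reads on its 3p arm and 1 on its 5p arm (0.159%, 0.00402 to 0.881%). In m0112 it was the 5p arm that was high, with 263 reads against 1 read of the 3p arm (0.379%, 0.00959 to 2.09%). Since a count of 1 has an interval of 0.0253 to 5.57, the order among these hairpins is not resolved at this depth.

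A second uneven group was higher in reads on the less-read arm. m0026 had 632 reads on its 3p arm and 7 on its 5p arm (1.10%, 0.442 to 2.24%). m0235 had 441 reads on its 5p arm and 7 on its 3p arm (1.56%, 0.630 to 3.19%). m0157 had 458 reads on its 5p arm and 15 on its 3p arm (3.17%, 1.79 to 5.18%). In all 3 hairpins the interval of the less-read arm stayed far below an even split.

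Other abundant hairpins had substantial reads on both arms. m0025 had 435 reads on its 3p arm and 154 on its 5p arm, which held 26.1% (22.6 to 29.9%). m0244 had 296 reads on its 5p arm and 69 on its 3p arm (18.9%, 15.0 to 23.3%). m0192, with 208 reads on its 5p arm and 31 on its 3p arm, had 12.97% on the less-read arm (8.99 to 17.9%). In these 3 hairpins both strands were read well above the level of single reads, and the more-read arm was resolved.

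The most even hairpins among those with at least 20 reads were m0254, m0231, m0128, m0129 and m0023. m0254 had 15 reads on its 3p arm and 14 on its 5p arm. m0231 had 78 on its 3p arm and 60 on its 5p arm, and the less-read arm held 43.5% (35.1 to 52.2%). m0128 had 15 on its 5p arm and 9 on its 3p arm (37.5%, 18.8 to 59.4%). For these 3 the more-read arm is not resolved, because the interval of the share includes 50%. It is resolved for m0129, with 64 reads on its 3p arm and 34 on its 5p arm (34.7%, 25.4 to 45.0%), and for m0023, with 250 on its 5p arm and 129 on its 3p arm (34.0%, 29.3 to 39.0%). The other 4 hairpins with an unresolved arm were m0010, m0037, m0177 and m0213, with 11 to 17 reads each, of which all but m0177 were singled out after their values were seen.

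**Figure D2:**
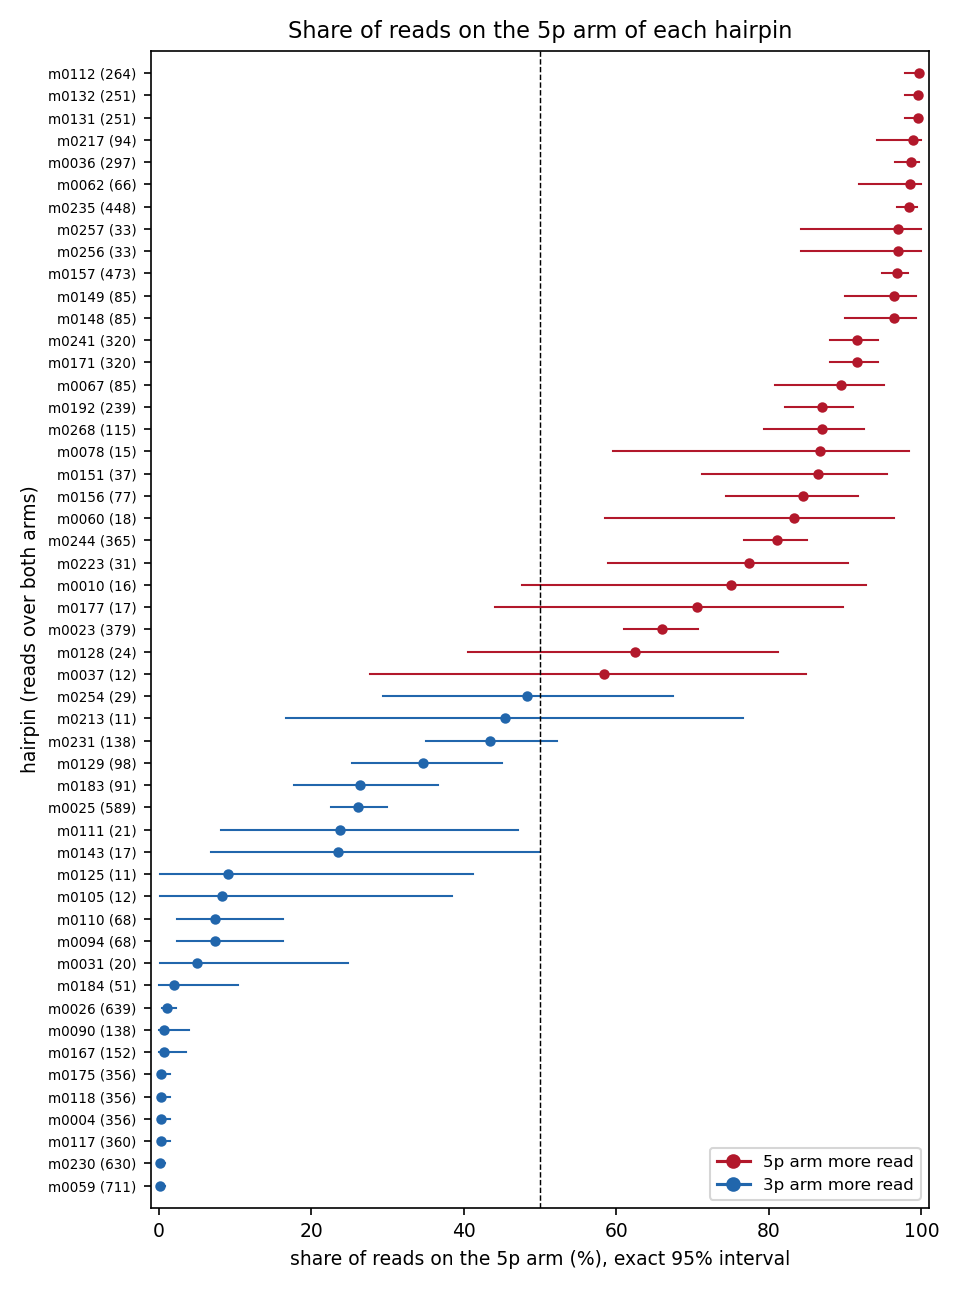
Share of reads on the 5p arm of each hairpin (points, in percent) with its exact 95% interval (lines), ordered by the share, with the reads over both arms in brackets. The interval of 24 hairpins lies above 50% and that of 20 below it, and wide intervals belong to hairpins with few reads.

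The other hairpins filled the range between these cases and, m0067 apart, were named after their values were seen. m0217, with 93 reads on its 5p arm, and m0031, with 19 reads on its 3p arm, had 1 read on the opposite arm, as had m0090 (137 reads on the 3p arm) and m0167 (151 reads on the 3p arm). m0067 had 76 reads on its 5p arm and 9 on its 3p arm, and m0156 had 65 on its 5p arm and 12 on its 3p arm. m0151 had 32 reads on its 5p arm and 5 on its 3p arm, and m0060 had 15 and 3 on the same arms. m0256 and m0257, with identical arms, had 32 reads on the 5p arm and 1 on the 3p arm. The lowest of this group were m0105 and m0125, with 11 and 10 reads on the 3p arm and 1 on the 5p arm, so that their shares have the widest intervals among these (0.211 to 38.5% and 0.230 to 41.3%).

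Many members stood just inside the rule. The less-read arm had 1 read in 19 hairpins (37.3%) and 5 or fewer in 33, while 13 hairpins had at least 10 reads on each arm. In 12 of the 19 hairpins with 1 read on the less-read arm, that arm was the 5p arm. Just outside the rule were 218 hairpins with a single arm listed, after the same 6 loci were left out. The both-arm hairpins had a median of 91 reads (11 to 711) and the single-arm hairpins of 14 reads (5 to 818). Under 20 reads were listed for 9 of the both-arm hairpins (17.6%), against 133 of the single-arm hairpins (61.0%). A count of 0 on the second arm allows a share of up to 17.6% at 14 reads and of up to 0.365% at 818 reads, if 3 counts are taken as the limit. At the median single-arm hairpin this limit lies above the median share of 8.33% of the both-arm hairpins, so the absence of a listed read does not exclude a second arm of that share there.

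Sequences recurred among the hairpins, which limits what a count says about a single locus. The 102 arms had 84 distinct sequences and formed 44 distinct duplexes. In 22 hairpins at least 1 arm was also listed for another predicted locus, and in 14 of them both arms were. With each arm sequence counted 1 time, at its highest listed count, 6981 of the 9372 reads remained. The listed counts were not the same for every copy of a sequence, since 14 of 41 repeated predicted sequences were given with more than 1 count. The 29 hairpins with no shared arm had a median of 13.3% on the less-read arm, and the 5p arm was higher in 17 of them.

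The 5p arm of m0023, m0131 and m0132 showed this most clearly. It was listed with 250 reads for each of these loci and for m0122, which had no 3p row. The 3p arm was listed with 129 reads for m0023 but with 1 read for m0131 and m0132, whose 3p arms are identical. The 3p arm of m0023 differs from theirs by T12C and T13A, counted from the 5' end with the base of m0131 first. The less-read arm thus held 34.0% (29.3 to 39.0%) in m0023 and 0.398% (0.0101 to 2.20%) in m0131 and m0132, while the 5p reads cannot be assigned to any of these loci.

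A like case was the 5p arm of m0036, m0171 and m0241, listed with 293 reads for each and chosen for mention after its values were seen. The 3p arm had 4 reads in m0036 and 27 in m0171 and m0241, which held 1.35% (0.368 to 3.41%) and 8.44% (5.63 to 12.04%) of the reads of their hairpins. The 3p arm of m0036 differs from the others by C2A, within the seed. The intervals of these shares do not overlap, although the 5p reads behind them are the same. The single-arm locus m0051 was listed with the same 5p sequence and 230 reads.

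The repeated 3p arm of m0004, m0117, m0118 and m0175 was the most widespread. Its sequence (aAAGACTAaaatacccttga) was listed for 13 loci in all, with 359 reads for m0117 and 355 for m0004, m0118 and m0175. The 5p arm had 1 read in each, with the same sequence in m0004 and m0118 and and with T20C, the base of m0117 first, between m0117 and m0004. The seed of the 5p arm is also that of the 3p arm of m0213. These counts do not show which of the 13 loci the 3p reads came from.

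Some hairpins lay close together. On scaffold 4, m0148, m0131, m0149 and m0132 followed each other in this order, with 5646, 13378 and 13543 bases between them, m0131 and m0132 on the plus strand and m0148 and m0149 on the minus strand. On scaffold 1, 561 bases lay between m0025 and m0026, both on the plus strand, and on scaffold 8, 23919 bases between m0256 and m0257. The 3p arms of m0026 and m0025 differ at 5 of 22 positions and their 5p arms at 12. Although adjacent, they were uneven to a different degree, with 1.10% (0.442 to 2.24%) of the reads on the less-read arm of m0026 and 26.1% (22.6 to 29.9%) on that of m0025.

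Few arms resembled a known miRNA of the list. The 3p arm of m0231 is identical to the listed miR171, a family known for GRAS transcription factor targets, which was given with 60 reads under its known name and 78 under m0231. The 5p arms of m0023 and its copies and of m0148 and m0149 differ from the listed miR169, a family known for NF-YA targets, at 3 of 20 compared positions. The 5p arm of m0143, its less-read arm with 4 reads against 13 of the 3p arm, differs from miR397, a family known for laccase targets, at 3 of 21 positions. All other arms had at least 4 differences from the closest listed known miRNA, compared without gaps and with an offset of up to 2. Larger offsets were not searched, so arms that are shifted further against a known miRNA were missed. The 3p arm of m0184 overlaps the miR171 sequence over 18 positions when shifted by 3, with 1 difference. The 5p arm of m0167 ends in the whole miR477 sequence, also at a shift beyond this limit.

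By identical seed, 5 groups held more than 1 sequence. The largest was the seed AGCCAAG of m0023-5p, m0129-5p, m0131-5p, m0132-5p, m0148-5p, m0149-5p and m0183-5p. Within this group, the 5p arm was the more-read arm in m0023, m0131, m0132, m0148 and m0149 and the less-read arm in m0129 and m0183. m0148 and m0149 had 82 reads on the 5p arm and 3 on the 3p arm (3.53%, 0.734 to 9.97%). m0183 had 67 reads on the 3p arm and 24 on the 5p arm (26.4%, 17.7 to 36.7%), although its 5p sequence is that of m0129. Arms with the same seed thus stood on either side of the duplex in reads. The 3p arms of m0094, m0110 and m0177 shared the seed GCCAAAG and were more read in m0094 and m0110, with 63 reads against 5 on the 5p arm, and less read in m0177, with 12 reads on the 5p arm and 5 on the 3p arm.

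Lengths were compared between the arms and with single-arm hairpins. Of the more-read arms 32 of 51 were 21 nt long (62.7%, 48.1 to 75.9%), of the less-read arms 28 of 51 (54.9%, 40.3 to 68.9%) and of the single-arm hairpins 86 of 218 (39.4%, 32.9 to 46.3%). Both arms were 21 nt long in 26 hairpins, and both arms had the same length in 37. The less-read arms spread further, with 24 nt in m0090-5p, 25 nt in m0167-5p and 26 nt in the 3p arms of m0256 and m0257, each a single read and each named after its value was seen. No more-read arm was longer than 23 nt, and the study's prediction allowed reference lengths only up to that size.

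Arms of 23 nt set the both-arm hairpins apart most. They made up 6 of 51 more-read arms (11.8%, 4.44 to 23.9%), 1 of 51 less-read arms (1.96%, 0.0496 to 10.4%) and 88 of 218 single-arm hairpins (40.4%, 33.8 to 47.2%). Among hairpins with at least 20 reads the shares were 4 of 42 more-read arms (9.52%, 2.66 to 22.6%) and 21 of 85 single-arm hairpins (24.7%, 15.99 to 35.3%), where the intervals overlap. Reads per hairpin moved with this difference, as given above, and their part in it was not tested.

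The more-read arm also differed with its side of the hairpin. Where the 5p arm was more read, it was 21 nt long in 22 of 28 hairpins (78.6%, 59.0 to 91.7%), and where the 3p arm was more read, it was so in 10 of 23 (43.5%, 23.2 to 65.5%). Another 5 of the more-read 3p arms were 20 nt long, of which 4 are copies of the sequence in m0004 given above. The intervals overlap, and the copies are counted separately.

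U was the most frequent first nucleotide, but in a minority of arms. It was first in 19 more-read arms (37.3%, 24.1 to 51.9%), 18 less-read arms (35.3%, 22.4 to 49.9%) and 90 of 218 single-arm hairpins (41.3%, 34.7 to 48.1%). In 12 hairpins only the more-read arm began with U, in 11 only the less-read arm, in 7 both arms and in 21 neither. Plant miRNAs loaded into AGO1 are known to begin mostly with U. A first U did not separate the more-read from the less-read arms in these hairpins, to within these intervals.

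G was first in 14 more-read arms (27.5%, 15.9 to 41.7%), 15 less-read arms (29.4%, 17.5 to 43.8%) and 31 single-arm hairpins (14.2%, 9.87 to 19.6%). Within the more-read arms, U was first in 12 of 23 on the 3p side (52.2%, 30.6 to 73.2%) and in 7 of 28 on the 5p side (25%, 10.7 to 44.9%). G was first in 3 of 23 on the 3p side and in 11 of 28 on the 5p side (39.3%, 21.5 to 59.4%). The G class on the 5p side holds the 293-read sequence of m0036, m0171 and m0241, that of m0148 and m0149 and that of m0256 and m0257 more than 1 time.

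**Figure D3:**
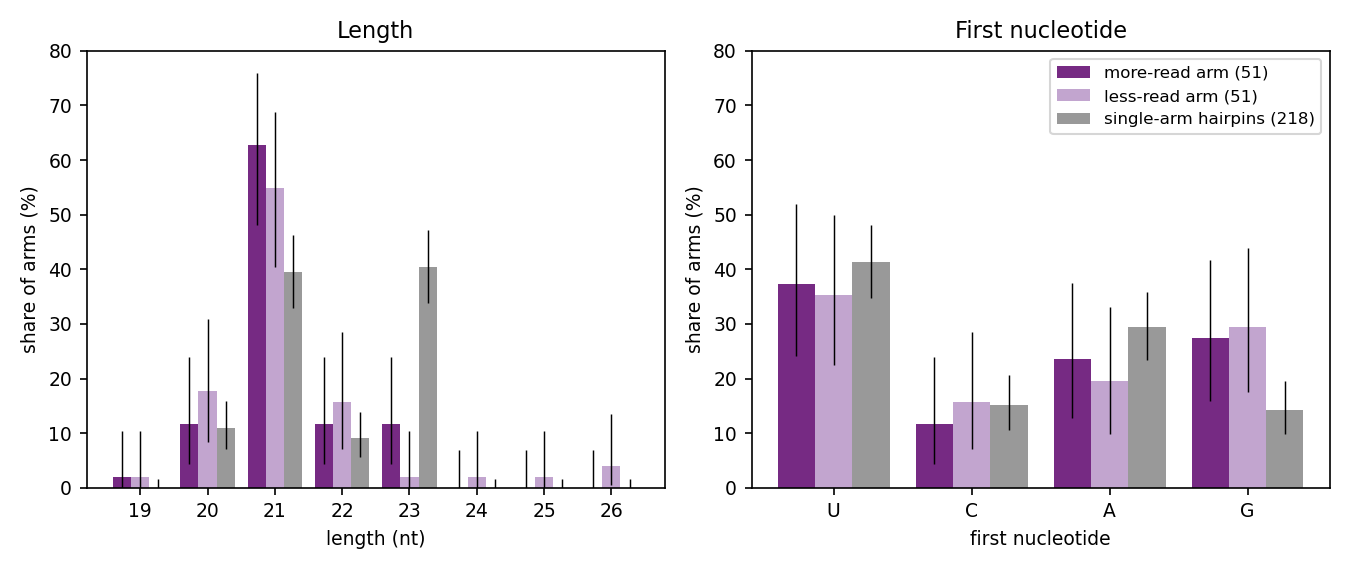
Share (in percent) of arms of each length in nt (left) and with each first nucleotide (right) among more-read arms, less-read arms and single-arm hairpins, with exact 95% intervals as lines. The bars at 23 nt differ most, with 11.8% of the more-read arms and 40.4% of the single-arm hairpins, while U has between 35.3% and 41.3% in the 3 classes.

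The arms of most hairpins formed a duplex with the overhang that a Dicer cut leaves. When each hairpin sequence was folded, 91 of 100 duplex ends (91.0%, 83.6 to 95.8%) had a 3' overhang of 2 nt, 44 of 50 at the base and 47 of 50 at the loop. In 43 hairpins it was 2 nt at both ends. The study's prediction required paired arms but states no overhang. A median of 18 positions of the 5p arm were paired with the 3p arm, 46 hairpins had at least 16 such pairs, which the study's prediction required, and the arms were separated by a median of 51 nt (8 to 227).

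The exceptions, named after their values were seen except where they have a degradome site, were few. In m0062 no base of the 5p arm (65 reads) paired with the 3p arm (1 read of 19 nt) in the fold of lowest energy, so this hairpin gave no overhang. m0111, with 16 reads on the 3p arm and 5 on the 5p arm, had an overhang of 0 at both ends. m0128 had 1 nt at both ends, and m0167, with a 5p arm of 25 nt, had -1 nt at the base, where the 3p arm ended before the base opposite the start of the 5p arm. m0023, m0090, m0177 and m0183 departed from 2 nt by 1 nt at 1 end. In m0213, which had 6 reads on the 3p arm and 5 on the 5p arm, only 14 positions were paired, but both overhangs were 2 nt. Fewer than 16 positions were also paired in m0090 (13) and in m0026 and m0037 (15 each). In m0026 and m0037 both overhangs were 2 nt.

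Pairing at the start of an arm is of interest because, in animals and plants, the strand whose 5' end is less stably paired is often the one that is kept. It was measured as the number of hydrogen bonds over the first 4 nucleotides of each arm (GC 3, AU 2, GU 1). The more-read arm lay at the weaker end in 19 of 42 hairpins with unequal ends (45.2%, 29.8 to 61.3%), and 9 hairpins, m0062 among them, were tied. The median was 9 bonds for the more-read and 9 for the less-read arms. The share was 11 of 22 where the 5p arm was more read and 8 of 20 where the 3p arm was more read. Whether the weaker end was that of the more-read arm was therefore not distinguishable from an even split.

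Among the uneven hairpins both cases occurred. m0131 and m0132 had 8 bonds at the start of the more-read 5p arm and 11 at the start of the 3p arm, and so had m0148 and m0149. In m0230 the more-read 3p arm had 10 bonds and the 5p arm 8, and in m0026 the 3p arm had 10 and the 5p arm 9. m0059 had 7 bonds at the start of the more-read 3p arm and 10 at that of the 5p arm.

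**Figure D4:**
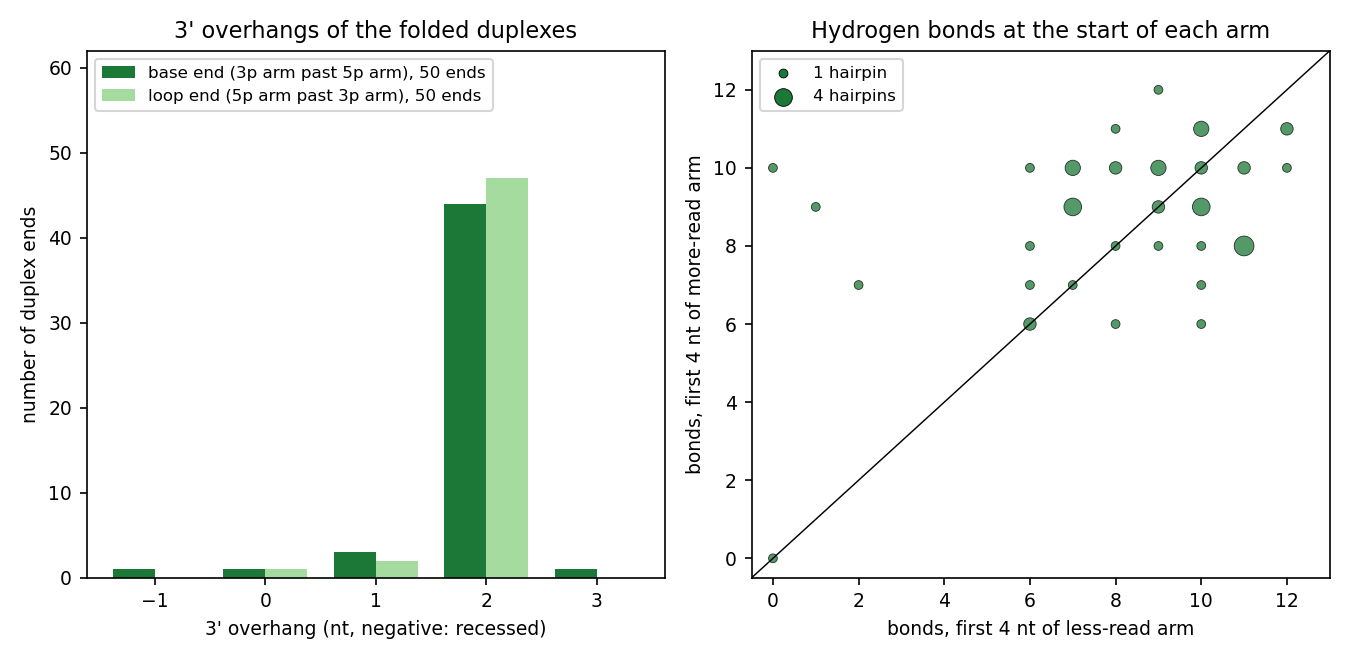
Left, number of duplex ends with each 3' overhang in nt, at the base and at the loop of the folded hairpins. Right, hydrogen bonds over the first 4 nucleotides of the more-read arm against those of the less-read arm, with the symbol area showing the number of hairpins. The bars at 2 nt hold 44 of 50 base ends and 47 of 50 loop ends, and the points lie on both sides of the line of equality.

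The degradome list gives, for a miRNA and a transcript, the reads that begin at the expected cleavage site, a category (0 for the highest position of the transcript, 1 for a tied highest position, 2 for a position above the median, 3 for one at or below it, 4 for a position with 1 read) and a p-value of the authors that is not adjusted for the number of pairs. Of the 51 hairpins, 27 had a listed pair with either arm (52.9%, 38.5 to 67.1%), where 20.7% of all predicted loci and 12.8% of the 218 single-arm hairpins had a pair. A hairpin with both arms has more sequences that can be listed. Per arm, 32 of 102 member arms had a pair (31.4%), against 18.8% of all 329 predicted arms. Per distinct sequence, 23 of 84 member arms had one (27.4%), against 23 of 172 single-arm sequences (13.4%). These classes are not separate, because 21 of the 218 single-arm hairpins carry the sequence of a member arm. With the authors' p under 0.05, 12 of 51 hairpins remained (23.5%, 12.8 to 37.5%), where 8% of all predicted loci and 4.13% of the single-arm hairpins did. This interval treats copies as separate hairpins, although copied arms count the same degradome reads. By distinct sequence, 8 of 84 member arms had such a pair (9.52%, 4.20 to 17.9%), and the 14 pairs fell on 7 distinct sites. The like share of distinct single-arm sequences is not given here. A pair of category 0, 1 or 2 was listed for 16 of 51 (31.4%), where 12% of all predicted loci had one.

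Both kinds of arm were listed. The more-read arm alone had a pair in 7 hairpins, the less-read arm alone in 15 and both arms in 5, with copies counted separately. By distinct sequence, 9 of 41 more-read arms had a pair (22.0%, 10.6 to 37.6%). So had 14 of 43 less-read arms (32.6%, 19.1 to 48.5%), and the intervals overlap. Of the 57 pairs, 25 belonged to more-read and 32 to less-read arms. With the authors' p under 0.05, 8 hairpins had such a pair on the more-read arm and 4 on the less-read arm. Of the 8, 5 (m0023, m0131, m0132, m0148 and m0149) count the same reads at 1 site of ppa006634m. That site was also listed for the less-read arm of m0129 and m0183. The more-read arm is not resolved for m0231, counted among the 8, and for m0128, counted among the 4. Per distinct sequence, such a pair was listed for 5 of 41 more-read arms (12.2%, 4.08 to 26.2%) and 3 of 43 less-read arms (6.98%, 1.46 to 19.1%), where the intervals overlap. With at least 5 degradome reads at the site, a pair remained for 10 of 51 hairpins (19.6%, where 9.45% of all predicted loci had one), on the more-read arm of 8 and on the less-read arm of 2, or 5 and 1 distinct sequences. The pairs fall on 32 distinct sites, and 27 of the 57 have 1 degradome read (47.4%), as have 47.3% of all listed pairs.

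By pair, less-read arms were mostly listed with weak sites. Category 4, a single degradome read, held 19 of their 32 pairs (59.4%, 40.6 to 76.3%) and 8 of the 25 pairs of more-read arms (32.0%, 15.0 to 53.5%). The intervals overlap, and they count pairs of copied arms separately although these share the same degradome reads. Over distinct sites, the median was 1 degradome read at the 19 sites of less-read arms. It was 2 at the 17 sites of more-read arms. The sites of ppa006634m, ppa006028m, ppa007941m and ppa010894m were listed for both kinds of arm and are counted in both medians. Of the 19 less-read arms with 1 small RNA read, 8 had a pair (42.1%, 20.3 to 66.5%). Of the 32 with more reads, 12 had one (37.5%, 21.1 to 56.3%). Copies are counted separately in both shares, and the wide intervals overlap, so a difference between these arms is not resolved. The 5p arm of the m0004 and m0117 groups, with 1 read in each of these loci, was listed with 1 degradome read on ppa000337m, described as a component of protein import into chloroplasts. The authors' p was 0.435 for m0004 and m0118 and 0.819 for m0117 and m0175, whose sequences differ by T20C as above. The 5p arm of m0059, also read 1 time, was listed with 2 degradome reads on ppa003032m (the authors' p = 0.741).

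The site with the most reads on a more-read arm was that of m0026-3p. ppa001315m had 28 degradome reads (18.6 to 40.5) at nucleotide 594, a category 0 site with the authors' p at 0.00882. The aligned stretch of this transcript, at nucleotides 582 to 603, is given 5' to 3' with the base at the cleavage site in capitals, beside that of the NF-YA1 transcript ppa006634m, at nucleotides 1241 to 1261, that was listed for the AGCCAAG arms.
ppa001315m: gggggaugggagGaauaggcaa
ppa006634m: gcggcaauucaUucuuggcuu
The same arm of m0026 was also listed with ppa024822m, with 1 read (the authors' p = 0.864). The tables used here give no description of either m0026 target.

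The AGCCAAG arms shared their sites. ppa006634m, described as subunit A1 of nuclear factor Y, had 5 degradome reads (1.62 to 11.7) at nucleotide 1252, a tied highest position. It was listed for the more-read 5p arm of m0148 and m0149 (score 2.5, the authors' p = 0.00507), for the more-read 5p arm of m0023, m0131 and m0132 (score 4, the authors' p = 0.0141) and for the less-read 5p arm of m0129 and m0183 (score 4, the authors' p = 0.0176). The score is 0 for full pairing and rises with each mismatch. All of these pairs count the same 5 reads, so they do not say which arm cut the transcript.

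The less-read 5p arm of m0129 and m0183 had the strongest site of its own. ppa008065m had 28 degradome reads (18.6 to 40.5) at nucleotide 1069, a category 0 site with the authors' p at 0.0114, which was listed for these hairpins and for the single-arm loci m0107 and m0108 with the same sequence. No pair of the m0023 or m0148 arms was listed there. ppa006028m and ppa007941m, described as homologs of the Arabidopsis NAC genes ANAC103 and ANAC082, had 5 reads each, given as 2.5 normalized reads, and were listed for m0129 and m0183 (the authors' p = 0.356) and for m0148 and m0149 (the authors' p = 0.586). ppa026026m and ppa010894m had 1 read each for m0129 and m0183, and ppa010894m also for m0023, m0131 and m0132. In m0129 and m0183 the arm with these sites had 34 and 24 small RNA reads, against 64 and 67 reads of the 3p arm, which had no listed pair.

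Of the even hairpins, m0128 had its pair on the less-read arm. m0128-3p, with 9 reads against 15 of the 5p arm, was listed with 3 degradome reads (0.619 to 8.77) at nucleotide 204 of ppa007253m, a category 0 site with a score of 1 and the authors' p at 0.00426. This was the lowest p among the 57 pairs. Because the interval of the share of m0128 includes 50%, its more-read arm is not resolved. m0268-3p, with 15 reads against 100 of the 5p arm, was listed with 2 reads at a category 3 site of ppa011992m (the authors' p = 0.0335).

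The miR171-like arms of m0231 and m0184 were listed on the same transcripts. Their 3p arms overlap over 18 positions when shifted by 3, with 1 difference, C9T, counted in m0231-3p with its base first. ppa001561m and ppa001781m, both described as Scarecrow-like protein 6 of the GRAS family, were the targets of each. For m0184-3p (50 reads against 1 of the 5p arm), ppa001561m had 9 degradome reads (4.12 to 17.1) at nucleotide 1838, a category 0 site with the authors' p at 0.00849. For m0231-3p (78 reads against 60), the same transcript had 2 reads at nucleotide 1835 (0.242 to 7.22, the authors' p = 0.511). On ppa001781m the order was the other way, with 3 reads at nucleotide 1286 for m0231-3p (the authors' p = 0.0131) and 2 at nucleotide 1289 for m0184-3p (the authors' p = 0.511). The sites of the shifted arms thus stood 3 nt apart in both transcripts, and their counting intervals overlap.

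Pairs with higher p-values complete the list. m0157-5p, the more-read arm with 458 reads, had 8 degradome reads (3.45 to 15.8) on ppa025175m and 2 on ppa002471m, both with the authors' p at 0.320. m0177-5p had 4 reads on ppa018282m, described as trans-cinnamate 4-monooxygenase, an enzyme of phenylpropanoid synthesis (the authors' p = 0.538), and 1 read each on ppa006690m and ppa007317m. m0223 had a pair on each arm, with 1 read on ppa005600m for the more-read 5p arm, described as a RelA and SpoT-like nucleotidyltransferase, and 1 read on ppa011243m for the 3p arm. m0230-3p, the more-read arm with 629 reads, had 1 read on ppa009122m (the authors' p = 0.435). m0026-3p and m0230-3p thus had nearly the same number of small RNA reads, 632 and 629, but 28 and 1 degradome reads at their highest site.

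The remaining pairs lay on less-read arms and had 1 to 3 reads. m0062-3p (1 small RNA read) had 3 on ppa001615m, m0192-3p (31 small RNA reads) 2 on ppa020132m, and m0067-3p, m0143-5p and the 5p arm of m0094 and m0110 had 1 each, on ppa005780m, ppa000296m and ppa000011m. The 3p arm of m0131 and m0132 had 1 read shared by ppa000195m and ppa000196m, and that of m0148 and m0149 had 1 on ppa009021m. The authors' p for these pairs was between 0.248 and 0.734. Sites lay at position 10 of the arm in 55 of the 57 pairs, which is where the method looks for them.

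**Figure D5:**
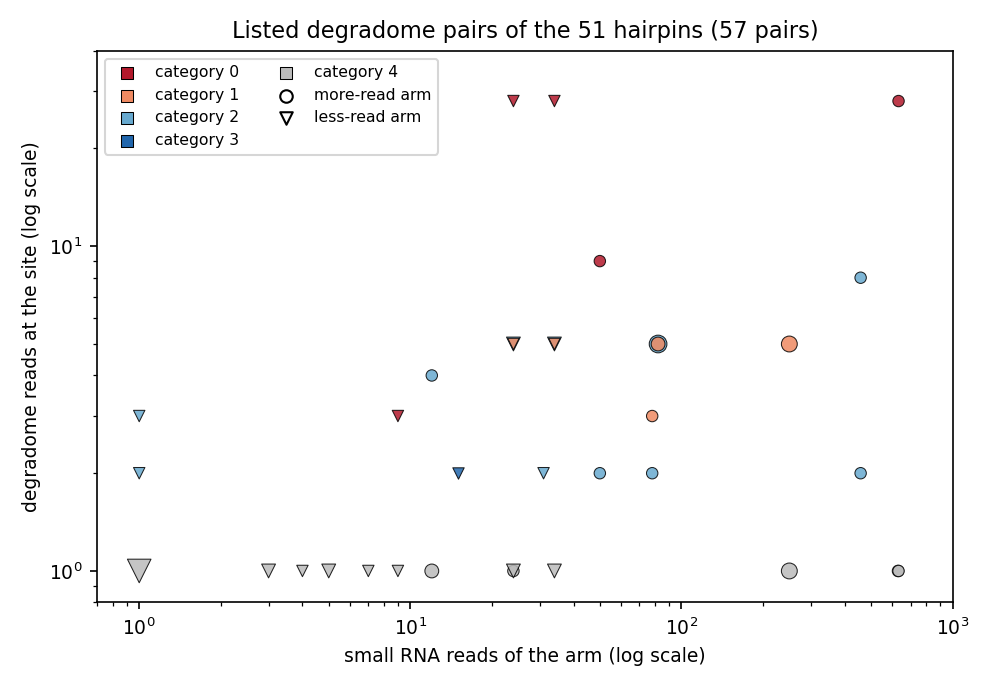
Degradome reads at each listed site against small RNA reads of the arm, both on log axes, for the 57 pairs of the 51 hairpins, coloured by category and with larger symbols where pairs coincide. Circles are more-read and triangles less-read arms, and the 28-read sites belong to m0026-3p and to the less-read 5p arm of m0129 and m0183.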

How the data were processed

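The deposited small RNA list gives raw read counts per miRNA, which the authors made by filtering low-quality and adaptor reads, removing other RNA classes, mapping to the peach genome with SOAP and predicting hairpins with MIREAP. In the deposited degradome list, the authors give counts of reads that start at a cleavage site, a normalized signal of them, and a p-value, a category and an alignment score from CleaveLand and targetfinder. The sources used here name no genome release for the hairpin table. A spreadsheet had turned 11 alignment ranges into dates, which were read back.

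Arms were joined by locus name. Hairpin sequences and places come from the study's hairpin table, transcript descriptions from its target tables. Hairpins were folded with RNAfold of ViennaRNA 2.7.2. A 3' overhang is how far an arm runs past the partner of the first base of the opposite arm, read from the first paired base. Weaker ends were compared over 4 positions. The closest known miRNA was searched without gaps, with an offset of up to 2 and at least 18 positions. Python 3.11.15, pandas 2.3.3, SciPy 1.17.1 and matplotlib 3.10.9 were used, and the fold and interval steps were tested on simulated data. Each kind of library exists 1 time, so no test was run. The members and lists were chosen with earlier results of these data known. Hairpins named singly are those with a degradome pair, the 10 distinct duplexes with the most reads, the 5 most and 5 least even duplexes with at least 20 reads and those with an arm identical to a known miRNA. Others are marked as chosen later. Alternatives covered copies, read minimums, the left-out loci, weights, folding tools and degradome thresholds.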

Additional observations from a re-analysis of the deposited data

How the results depend on the processing

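Of 53 alternative values for the 10 summary shares and medians, 50 stayed within the 95% interval of the value reported, and 3 did not, all of them stricter rules for a degradome pair. The share of hairpins with a pair, 52.9% in the report, was 23.5% for pairs with the authors' p under 0.05. It was 31.4% for categories 0, 1 and 2 and 19.6% with at least 5 reads at the site. Of all predicted loci, 8%, 12% and 9.45% passed these rules, with copies counted separately throughout. Staying within an interval says little with 51 hairpins. The median share of the less-read arm was 3.53% with at least 20 reads and 9.84% with copies counted 1 time, and the more-read arm lay at the weaker end in 36.1% with copies counted 1 time and in 58.1% when the first position alone was used. The overhang was 2 nt at 84.3% of ends when the arms were folded alone. Distinct sequences and a minimum of 5 reads on the less-read arm for first nucleotide and weaker end were chosen after seeing the data. Leaving out replicates was not possible, since each library exists 1 time. No paired analysis was possible because each kind of library has a single sample. Depth limits the 19 hairpins with 1 read on an arm most.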

Other observations

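In m0111 the blunt duplex depends on which 5' arm is used. The listed 5p arm starts at base 21 of the hairpin and gives an overhang of 0 at both ends. The 5p sequence listed for m0094 and m0110 with 5 reads also occurs 1 time in the hairpin of m0111, starting at base 23, and with it the fold gives an overhang of 2 nt at both ends. The 5p sequence of m0111 itself was also listed as the 3p arm of the single-arm locus m0095, with 5 reads. The 5p arm of m0254 is identical over 21 positions to the start of the 23-nt 5p arm of m0078, a hairpin chosen after its values were seen, and the hairpins had 15 reads on the 3p and 14 on the 5p arm in m0254 but 13 on the 5p and 2 on the 3p arm in m0078.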
